A study of Mus musculus with 7 samples.

Results

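Neutrophils that carry MHC class II transcripts were followed in the inflamed joints of mice with K/BxN serum transfer arthritis, a model in which serum with autoantibodies from arthritic K/BxN mice is injected into healthy recipients. A cell was counted as positive when H2-Aa, H2-Ab1, H2-Eb1 and Cd74 together had at least 2 unique molecular identifiers (UMIs, which count captured transcripts) and its deposited ImmGen reference class began with GN, the granulocyte classes. This gave 205 positive cells of 2857 joint neutrophils, in a library of 4856 cells and a series of 21763 cells. The positive cells were thus chosen by their measured UMIs of these 4 genes, and those UMIs are given as a description. The other joint neutrophils were 305 cells with 1 class II UMI and 2347 cells with 0, called zero cells here.

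The study profiled sorted CD11b+ Ly6G+ PI-negative neutrophils of male wild-type C57BL/6J mice by droplet-based single-cell RNA sequencing. The inflammation library pooled 5 conditions marked by hashtag oligonucleotides, each from 3 mice, in 1 run. Arthritic mice were injected intraperitoneally with K/BxN serum at 8 weeks of age on days 0 and 2, and on day 7 joint cells of such mice were collected by lavage and blood by cardiac puncture. Further mice aged 8 weeks received 25 ng IL-1β and were killed after 3 h, either given intranasally before bronchoalveolar lavage (lung) or intraperitoneally before peritoneal lavage (peritoneum), and blood of untreated healthy mice served as control. The other 6 libraries came from blood, bone marrow and spleen of healthy mice, aged 6 weeks in run 1 and 8 weeks in run 2, and the sources used here give no separate age for the control blood of the inflammation library. With 1 pool per condition there are no replicates, so no test between conditions or groups of cells was possible, and every interval given is a 95% interval that covers counting error only.

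MHC class II molecules are pairs of an alpha and a beta chain that present peptides from engulfed material to CD4 T cells. H2-Aa and H2-Ab1 encode the alpha and beta chains of I-A, H2-Eb1 encodes the beta chain of I-E, and Cd74 encodes the invariant chain that holds the groove until H2-DM exchanges it for a peptide. C57BL/6 mice lack a functional alpha chain of I-E, so that H2-Eb1 is transcribed without a matching surface molecule. In professional antigen-presenting cells the genes are switched on together by the coactivator Ciita, which docks on factors bound to the X and Y boxes of their promoters.

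H2-Ab1 (chr17:34257689-34269419, plus strand), H2-Aa (chr17:34282744-34287823, minus strand) and H2-Eb1 (chr17:34305867-34316674, plus strand) lie close together on GRCm38. Of the 4 genes, 2 had a promoter in the RefSeq table for GRCm38.p6. The 250 bases before the RefSeq start of H2-Eb1 and H2-Aa are shown because these 2 genes gave most of the class II UMIs of positive joint cells, and those of H2-DMb1 because it is a class II locus gene with 0 UMIs in these cells. Capitals mark the letters AACTGATG, the end of a form of the X box, and TGATTGG, the Y box with an inverted CCAAT, both searched on both strands and chosen after the sequences had been read.
H2-Eb1, chr17:34305617-34305866, plus strand: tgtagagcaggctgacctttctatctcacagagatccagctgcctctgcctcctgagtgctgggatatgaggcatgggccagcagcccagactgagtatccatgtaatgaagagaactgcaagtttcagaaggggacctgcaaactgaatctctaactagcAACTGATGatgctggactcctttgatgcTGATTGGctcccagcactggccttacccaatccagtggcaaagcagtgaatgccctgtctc
H2-Aa, chr17:34287824-34288073, minus strand: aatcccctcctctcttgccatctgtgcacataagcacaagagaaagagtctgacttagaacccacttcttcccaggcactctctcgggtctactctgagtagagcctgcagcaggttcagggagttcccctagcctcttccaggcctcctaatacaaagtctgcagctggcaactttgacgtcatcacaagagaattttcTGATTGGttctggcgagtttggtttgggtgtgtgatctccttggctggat
H2-DMb1, chr17:34152941-34153190, plus strand: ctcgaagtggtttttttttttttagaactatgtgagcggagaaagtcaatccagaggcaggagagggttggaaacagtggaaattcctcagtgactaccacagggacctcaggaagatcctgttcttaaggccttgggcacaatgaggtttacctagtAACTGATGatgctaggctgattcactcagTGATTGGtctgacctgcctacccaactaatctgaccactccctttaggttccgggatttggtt
The X letters were found in the windows of H2-Eb1 and H2-DMb1 but not in that of H2-Aa, and the Y letters in all 3 windows, with no overlap between the motifs. The X letters ended 20 bases before the Y letters in H2-Eb1 and 21 bases before them in H2-DMb1. Over the 32851 windows of 250 bases in the table, 0.676% held the X letters, 7.23% the Y letters and 0.0731% (24 windows) both. The window of H2-DMb1 is set by the RefSeq start, and GENCODE starts this gene at base 34153072 of the chromosome, so that both motifs lie inside the gene in that annotation. The matches describe these windows only. H2-Eb1 and H2-DMb1 both held them, with 343 and 0 UMIs in positive cells.

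Positive neutrophils were found in the 3 inflamed tissues and were nearly absent from blood. The joint held 205 positive cells of 2857 (7.18%, exact binomial interval 6.26% to 8.18%). Blood of arthritic mice held 1 of 814 (0.123%, 0.00311% to 0.683%), and control blood held 0 of 509, which allows a share of up to 0.589% by the limit of 3 counts (exact binomial upper limit 0.722%). The share was 14.7% in lung (56 of 380, 11.3% to 18.7%) and 21.2% in peritoneum (62 of 292, 16.7% to 26.4%). Before thinning, the interval of the joint lay above those of both bloods and below those of lung and peritoneum. Median UMIs per cell were 3531 in the joint, 3580 in arthritic blood, 3681 in lung, 3475.5 in peritoneum and 2527 in control blood. After thinning each cell to 1000 UMIs the share was 1.79% in the joint (49 of 2734, 1.33% to 2.36%), 0 of 674 in arthritic blood and 0 of 354 in control blood, 3.50% in lung (10 of 286, 1.69% to 6.34%) and 9.52% in peritoneum (22 of 231, 6.07% to 14.1%), with 123, 140, 155, 94 and 61 shallower cells left out in that order. The thinned intervals of joint and lung overlapped. All 5 conditions shared 1 droplet run, and free RNA was not measured.

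The class II gene with the most UMIs was H2-Eb1 in the joint and Cd74 in lung, peritoneum and both bloods. In all joint neutrophils H2-Eb1 led with 433 UMIs (42.1 CPM, UMIs per 1e6 UMIs of the same cells, exact Poisson interval 38.2 to 46.2), before Cd74 with 233 (22.6 CPM), H2-Aa with 180 (17.5 CPM) and H2-Ab1 with 157 (15.3 CPM). In arthritic blood H2-Eb1 had 1 UMI (0.371 CPM, 0.00940 to 2.07), H2-Aa 1 and H2-Ab1 0, whereas Cd74 had 29 (10.8 CPM, 7.21 to 15.5). The Cd74 interval of arthritic blood lay below that of the joint (19.8 to 25.7 CPM). In control blood Cd74 had 17 UMIs (15.1 CPM, 8.80 to 24.2), an interval that overlapped that of the joint, and the 3 chain genes 1 in all, from H2-Aa.

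Lung cells had 193 UMIs of Cd74 (146 CPM), 45 of H2-Aa (34.1 CPM), 23 of H2-Ab1 and 21 of H2-Eb1 (15.9 CPM). Peritoneal cells had 388 UMIs of Cd74 (412 CPM, 372 to 455) but 1 of H2-Aa, 3 of H2-Ab1 and 4 of H2-Eb1 (4.24 CPM, 1.16 to 10.9). The peritoneal positives were thus cells with Cd74 and hardly any chain transcript: when at least 2 of the 4 genes had to be seen, the share fell to 1.71% in peritoneum and 3.68% in lung, beside 3.26% in the joint.

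Among the 205 positive joint cells, H2-Eb1 gave 343 of 698 class II UMIs (49.1%, 45.4% to 52.9%), H2-Aa 150 (21.5%), H2-Ab1 106 (15.2%) and Cd74 99 (14.2%, 11.7% to 17.0%). Cd74 instead gave 66.4% of the UMIs of lung positives (59.8% to 72.5%) and 98.6% of those of peritoneal positives. These are counts of 3′ tags, which may be captured with unequal efficiency from different genes, so that the order of genes is one of UMIs and not of transcript levels. In the healthy libraries, whose deposited counts precede the removal of other cell types, cells with at least 2 class II UMIs reached up to 560 to 923 UMIs per cell, and Cd74 gave 59.3% to 69.7% and H2-Eb1 6.73% to 9.24% of their class II UMIs. Chemistry differed between these libraries (v2) and the inflammation library (v3), whereas lung and peritoneum shared the library of the joint.

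**Figure D1:**
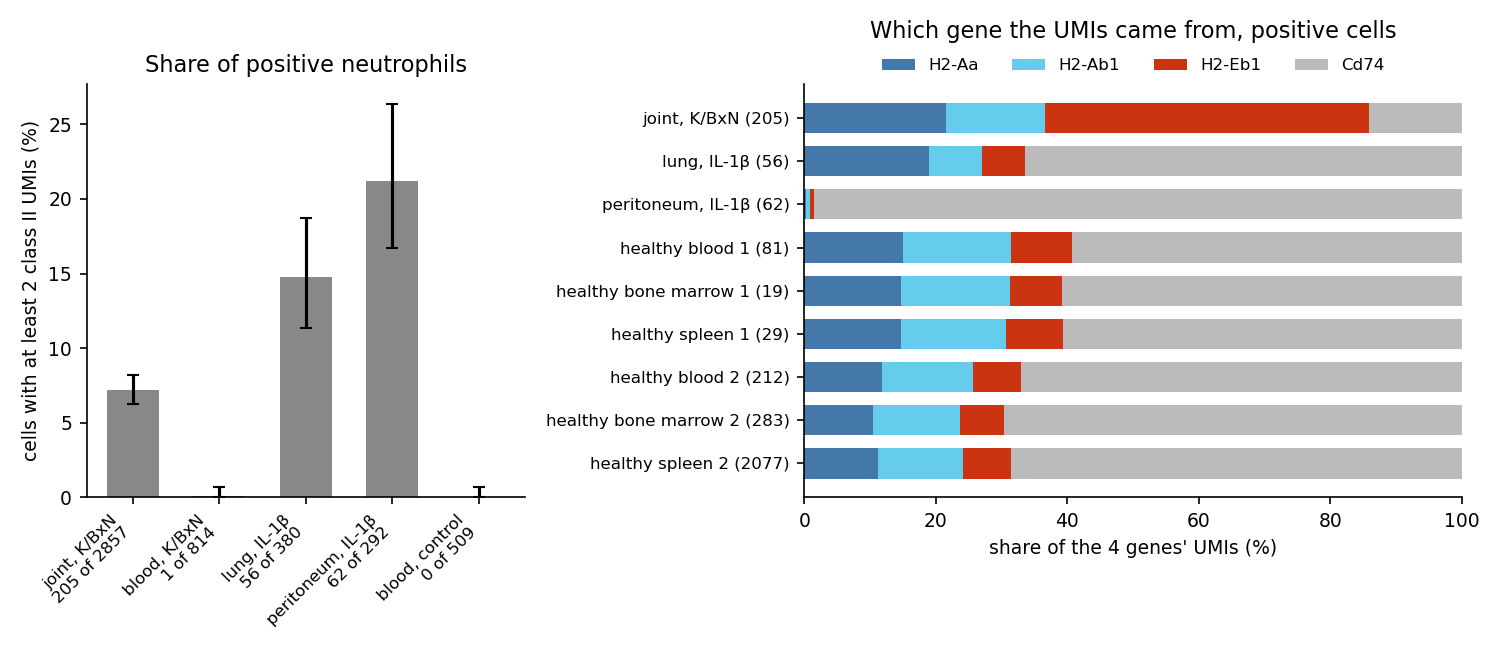
Left, share of neutrophils with at least 2 class II UMIs in each condition of the inflammation library (bars, percent, with exact binomial 95% intervals; numbers are positive cells of all neutrophils). Right, share of the class II UMIs of positive cells that came from each gene (percent; numbers of cells in brackets; the healthy libraries were not limited to neutrophils): H2-Eb1 gave 49.1% in the joint and at most 9.24% in every other group shown.

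A single class II gene was seen in 54.6% of the positive joint cells. Of the positive joint cells 112 had UMIs of 1 gene, 84 of 2 genes, 7 of 3 genes and 2 of all 4. H2-Eb1 alone was seen in 58 cells, Cd74 alone in 23, H2-Aa alone in 18 and H2-Ab1 alone in 13. Positive cells with H2-Eb1 numbered 133, against 62 with Cd74, 60 with H2-Aa and 54 with H2-Ab1. Of the 205 cells 106 had exactly 2 class II UMIs and could show at most 2 genes. Cells with more class II UMIs showed more genes: at least 3 were seen in 4.39% of all positive cells and in 19.4% of those with 5 or more UMIs.

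In most of the cells richest in class II UMIs a single chain gene gave the bulk of them. The highest cell had 22 UMIs, of which 11 were H2-Eb1, 9 H2-Ab1, 2 Cd74 and 0 H2-Aa. The next had 16, with 12 of H2-Aa, 3 of H2-Ab1, 1 of Cd74 and 0 of H2-Eb1, and the third had 14, with 13 of H2-Aa and 1 of H2-Ab1. A cell with 13 UMIs carried both H2-Eb1 and H2-Aa, with 11 and 2 of them. In the 31 joint cells with 5 or more UMIs the leading gene gave a median of 81.8% of the class II UMIs; it was H2-Eb1 in 19 cells, H2-Aa in 8 and H2-Ab1 in 4, and Cd74 led in 0. Of these 31 cells 19.4% had UMIs of at least 3 of the genes. In healthy-library cells with 5 to 22 UMIs, the range of these 31 cells, 14.3% to 75% had at least 3 genes. Cd74 gave 61.6% to 92.2% of their UMIs, beside 5.79% in the joint cells. The values of 75% and 61.6% come from 4 cells of bone marrow in run 1, and spleen of run 1 had 3 such cells.

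**Figure D2:**
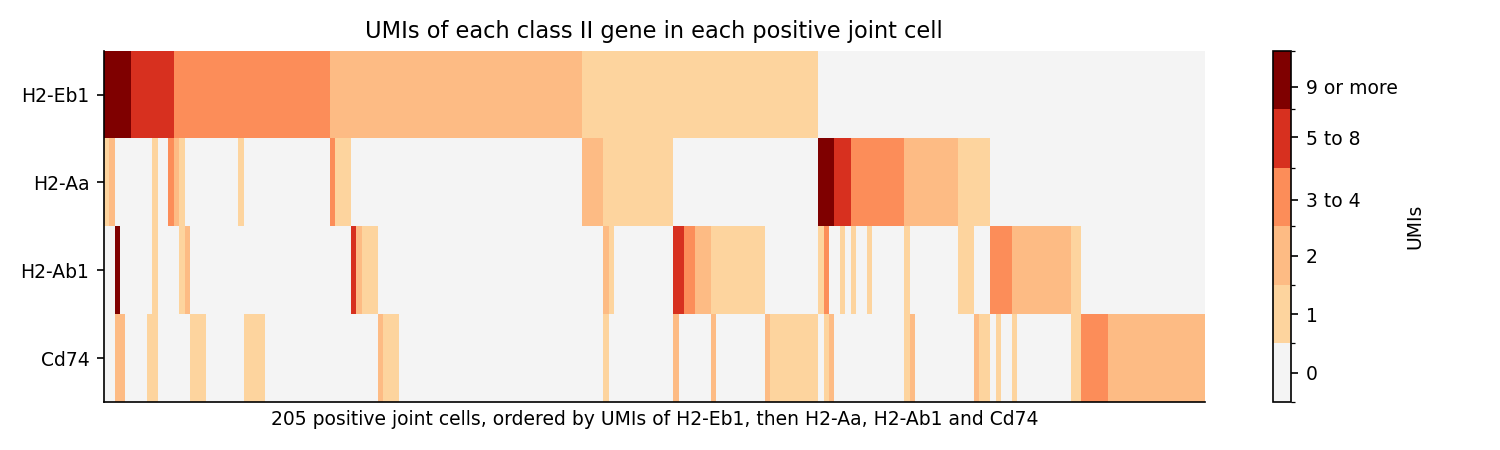
UMIs of H2-Eb1, H2-Aa, H2-Ab1 and Cd74 (rows) in each of the 205 positive joint cells (columns, ordered by the counts of the rows from top to bottom). Most columns are coloured in 1 or 2 rows: 112 cells had UMIs of 1 gene and 2 cells of all 4.

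Across all joint neutrophils, a cell with 1 chain gene was more often seen with a further chain gene than a cell without. H2-Aa was seen in 12.6% of the 223 cells with H2-Eb1 (8.51% to 17.6%) and in 2.35% of the 2634 cells without it (1.81% to 3.01%). H2-Ab1 was seen in 14.4% of cells with H2-Aa (7.92% to 23.4%) and in 3.32% of those without (2.69% to 4.06%). Cd74 was seen in 12.6% of cells with H2-Eb1 (8.51% to 17.6%), against 6.38% without (5.47% to 7.38%). Beside H2-Aa the intervals for Cd74 overlapped, with 10.0% of cells with H2-Aa (4.68% to 18.1%) and 6.76% of those without (5.85% to 7.76%). These shares include the cells that the rule selected and describe the counts on which it rests.

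At the threshold, 106 joint cells had exactly 2 class II UMIs and 305 had 1. In the cells with 1 UMI it was Cd74 in 134 and H2-Eb1 in 90, whereas in positive cells H2-Eb1 was the more frequent gene. Depth was close among the groups, with medians of 3609 UMIs and 1148 genes in positive cells, 3553 and 1133 in cells with 1 UMI, and 3528 and 1132 in zero cells.

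Positive cells carried neutrophil markers to differing extents, and the rule admitted only cells of a GN class. S100a8 and S100a9, the calprotectin genes that dominate neutrophil transcriptomes, had UMIs in all 205 cells, Csf3r, the G-CSF receptor, in 199, and Clec4d in 205. Mmp8 was seen in 58 (28.3%, against 41.1% of zero cells). Ly6g, the gene of a sort marker, was seen in 21 (10.2%, against 12.0% of zero cells). Levels of the whole neutrophil identity list are given below. Their ImmGen class was GN.Arth.SynF, the reference sample of arthritic synovial fluid, in 186 cells (90.7%, 85.9% to 94.3%), GN.Thio.PC in 13, GN.Bl in 5 and GN.UrAc.PC in 1. Zero cells were 76.9% GN.Arth.SynF (75.1% to 78.6%) and 10.3% GN.Bl, against 2.44% GN.Bl in positive cells. The classes came from the same transcripts, so values within GN.Arth.SynF alone (186 positive and 1805 zero cells, an alternative chosen after seeing the data) are given beside the results below where they differ.

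The 3 macrophage genes used as a check were rare in positive cells. C1qa, C1qb and Ms4a6c together had 8 UMIs, in 8 of 205 positive cells (3.90%, 1.70% to 7.54%), against 2.26% of zero cells (1.70% to 2.94%). Thinned to 1000 UMIs the shares were 1.47% and 0.852%. Of the complement genes C1qa, C1qb and C1qc each had 1 UMI in positive cells, and Ms4a6c had 6. Without the cells that held any of these transcripts the positive share of the joint was 7.07% (197 of 2786).

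Over the whole macrophage and monocyte list of 18 genes the summed level was 561 CPM in positive cells (510 to 615) and 589 in zero cells (572 to 605), with Ms4a7 and Ccr2 among the genes at 0 in positive cells. Apoe, a lipid carrier, had the highest level, with 317 CPM against 271, followed by Ly6c2 with 94.5 against 175 and Csf1r with 68.4 against 82.8. Adgre1, the F4/80 gene, was higher in positive cells (48.5 against 30.1 CPM, 1.61-fold, 1.12 to 2.26), and F13a1 had 4 UMIs in positive and 6 in zero cells (6.91-fold, 1.43 to 29.1). The list had UMIs in 65.9% of positive and 57.5% of zero cells (60.3% of arthritic blood cells).

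The dendritic cell list of 16 genes had 2 UMIs in positive cells, with 14 genes at 0, among them Flt3, Cd209a, Xcr1 and Ccr7. Of the B cell list only Ighm (52 UMIs) and Ighd (1) were counted in positive cells, and Cd79a, Cd79b, Ms4a1 and Pax5 were at 0. Its summed level was 65.9 CPM in positive cells, 50.9 in zero cells and 125 in arthritic blood. The T and NK cell list had 8 UMIs in positive cells (9.94 CPM), from Cd3d and Cd3g, and 108 in zero cells. The eosinophil, basophil and mast cell list had 28, all from Siglecf (34.8 CPM, against 25.7 for the list in zero cells), and the erythroid and platelet list had 6 (7.46 CPM, against 6.96). The fibroblast and endothelial list was higher in positive cells (92.0 CPM, 74 UMIs) than in zero cells (59.6 CPM), and Pdpn gave 67 of its 74 UMIs, while Col1a1 had 1 and Col1a2, Col3a1 and Cdh5 had 0. Whether pairs of neutrophils with the same hashtag or free RNA take part in the values was not tested.

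The class II regulator Ciita and the H2-DM genes were not counted in positive cells. Ciita, the coactivator that defines class II expression in professional cells, had 0 UMIs in positive cells and 0 in zero cells. A B cell of the same library (class B1a.PC) with 17 class II UMIs also had 0 UMIs of Ciita, so that these zeros do not show its absence. H2-DMa, H2-DMb1 and H2-DMb2, which encode the peptide-exchange factor H2-DM, had 0 UMIs in positive cells, where 3 UMIs would be 3.73 CPM, and 4, 4 and 2 UMIs in zero cells. Their levels in zero cells were at most 0.480 CPM, below that limit, so that 0 UMIs in positive cells do not set them apart. The H2-DM genes were not detectable at this depth. Of the loading list 4 of 11 genes were measured, 0 were past 2-fold and the median log2 ratio was 0.30. Of the lysosomal genes that trim the invariant chain and antigen, Ctss had 93.2 CPM in positive cells and 84.2 in zero cells, and Ctsd 3260 against 2289 CPM (1.42-fold, 1.37 to 1.48). Of the transcription list 7 of 12 genes were measured, 0 were past 2-fold and the median was 0.26. It was −0.088 when positive cells had at least 3 UMIs and −0.39 without cells that held a macrophage, dendritic or B cell UMI. The Y box factor Nfya had 37.3 against 31.2 CPM, the X box factor Rfxap 14.9 against 19.4, and Nlrc5, the class I counterpart of Ciita, 22.4 against 12.6 CPM (1.78-fold, 1.01 to 2.95). These are ratios of CPM in positive over zero cells, and a gene was measured when at least 10 UMIs were expected in positive cells. Over all genes measured 1.98% were at least 2-fold higher and 2.67% lower, so that 0 past 2-fold says little for lists this small.

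To describe the other transcripts, UMIs were summed over positive and over zero cells, and the 4788 measured genes were compared as levels in CPM, the 4 class II genes left out. Of these, 95 genes were at least 2-fold higher (1.98%) and 128 at least 2-fold lower (2.67%) in positive cells, and the median log2 ratio was 0.0040. Within GN.Arth.SynF 99 were higher and 85 lower, of 4486 genes. The class II UMIs that chose the groups come from the same cells as these levels, which are given as a description.

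The genes with the highest ratios were rare transcripts. Lmna, the nuclear lamina protein lamin A/C, led with 83.3 CPM in positive and 16.6 CPM in zero cells (5.03-fold, 3.70 to 6.78) and was seen in 26 of 205 and 101 of 2347 cells. Gstm1, a glutathione transferase, had 64.6 against 15.8 CPM (4.08-fold, 2.90 to 5.67). Gclc, of glutathione synthesis, had 34.8 against 11.4 CPM (3.05-fold, 1.93 to 4.70). Srebf2, a regulator of cholesterol synthesis, had 101 against 31.2 CPM (3.23-fold, 2.48 to 4.16) and Nceh1, a cholesterol ester hydrolase, 121 against 38.6 CPM (3.12-fold, 2.46 to 3.93).

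Slc31a1, a copper importer, was seen in 51 of 205 positive cells, with 99.4 against 30.5 CPM (3.26-fold, 2.51 to 4.21), and Slc38a1, a glutamine transporter, in 43, with 98.2 against 33.2 CPM (2.96-fold, 2.27 to 3.81). Pdcd1lg2, which encodes the PD-1 ligand PD-L2, had 84.5 against 26.3 CPM (3.22-fold, 2.41 to 4.24). Of the remaining genes, the endosomal sorting nexin Snx8 was 4.08-fold higher, melanoregulin Mreg 3.45-fold, the stress gene Gadd45g 3.28-fold, the histone methyltransferase Dot1l 3.17-fold, the G-protein regulator Rgs10 3.07-fold and Fam102a 2.96-fold. Gclc was 2.05-fold higher within GN.Arth.SynF (1.13 to 3.50), and the other 14 lay between 2.71-fold and 4.73-fold there.

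Ccl2, a chemokine that draws monocytes, was also among the 15 highest ratios (124 against 35.9 CPM, 3.47-fold), but 92 of its 100 UMIs came from 1 cell with 11 class II UMIs. Without that cell the log2 ratio of Ccl2 was −1.84.

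The genes with the lowest ratios rested on few UMIs in positive cells. Rin2, an endosomal exchange factor, had 2 UMIs in positive and 129 in zero cells (0.161-fold, 0.0192 to 0.592), and Gm8013 and Mnda also had 2 UMIs. Sec23ip, Usp48, Rrp1b and Nosip had 3, BC037034 had 4 and Rnaseh2c had 6, with ratios of 0.211 to 0.257 across these 6 genes. Mnda was 1.41-fold higher within GN.Arth.SynF, with an interval of 0.154 to 6.22. Cxcl10, an interferon-induced chemokine, had 21 UMIs (26.1 against 99.4 CPM, 0.262-fold, 0.162 to 0.404), and within GN.Arth.SynF the ratio was 0.988 (0.538 to 1.69). Cxcl10 was seen in 4.88% of positive and 3.66% of zero cells.

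**Figure D3:**
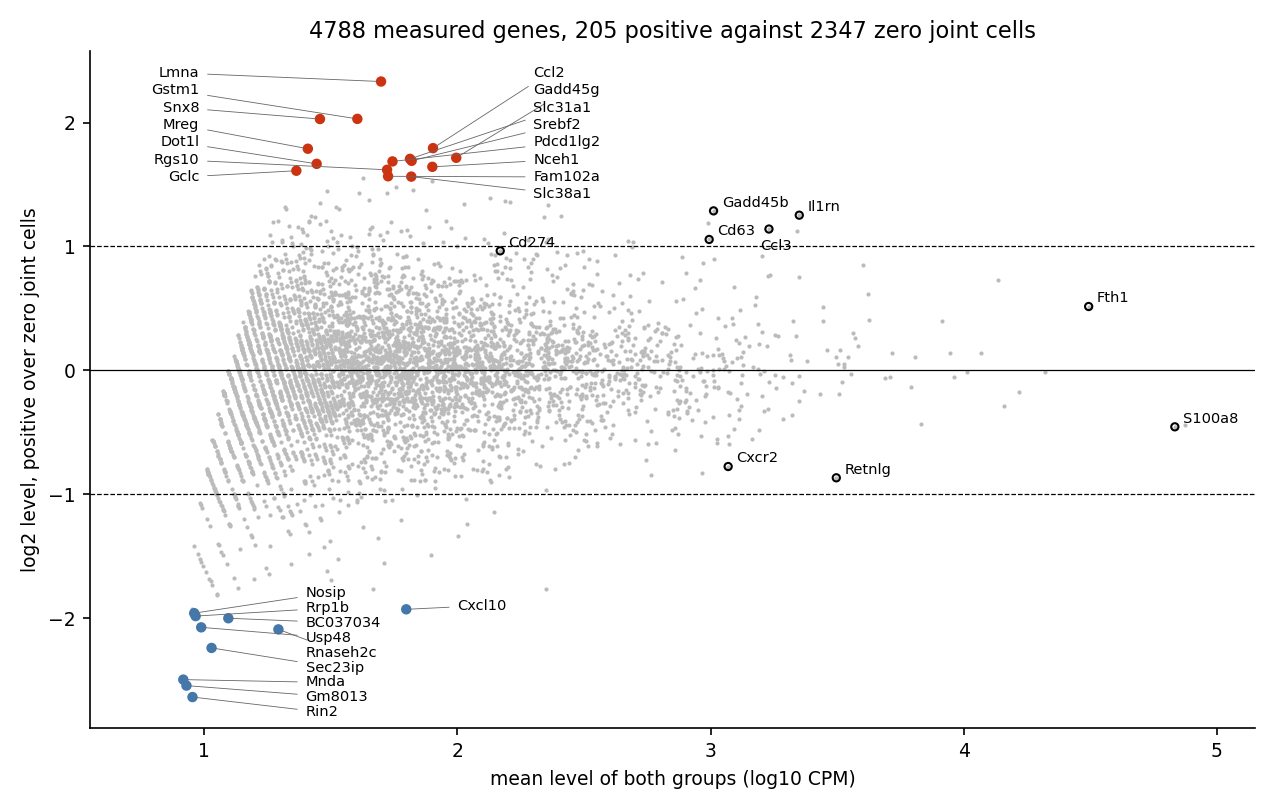
Each point is 1 of 4788 genes: mean level of both groups (log10 CPM, horizontal) against the log2 ratio of the level in positive over zero joint cells (vertical; dashed lines at 2-fold). Red and blue mark the 15 highest and 10 lowest ratios, and open circles mark other genes named in the text: the highest ratios lie at low levels, and Il1rn, Gadd45b, Ccl3 and Cd63 lie above 2-fold at high levels.

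Interferon-gamma induces class II through Ciita in many cell types, and its response genes had lower levels in positive than in zero cells. Of 22 listed interferon-gamma response genes 10 were measured, with 0 at least 2-fold higher and 3 at least 2-fold lower, beside 1.98% and 2.67% of all genes, and a median log2 ratio of −0.84. The 3 were the guanylate-binding protein gene Gbp2 (26.1 against 76.6 CPM, 0.341-fold, 0.209 to 0.525), Igtp (0.497-fold, 0.268 to 0.847) and Cxcl10. Within GN.Arth.SynF the median was −0.63, 1 of 9 genes (Igtp) was at least 2-fold lower and 0 of 9 had a ratio above 1. The ratio of Gbp2 there was 0.581 (0.295 to 1.04).

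Of 17 measured type I interferon response genes 1, Ifit3b, was at least 2-fold lower (87.0 against 193 CPM), 0 were 2-fold higher, beside 2.67% and 1.98% of all genes, and the median log2 ratio was −0.38. Within GN.Arth.SynF that median was −0.066 and 0 of 17 were at least 2-fold lower, with 5 above 0. Without cells that held a macrophage, dendritic or B cell UMI the median was 0.26. Of 13 measured class I genes 0 were past 2-fold, beside 1.98% higher and 2.67% lower of all genes, and the median was 0.05. B2m was 1.22-fold (1.15 to 1.28) and H2-K1 1.23-fold higher (1.13 to 1.34). The immunoproteasome gene Psmb9 (0.668-fold, 0.494 to 0.884), Psmb8 (0.815-fold, 0.662 to 0.995) and H2-T23 (0.855-fold, 0.733 to 0.993) were lower. Within GN.Arth.SynF only Psmb9 of these 3 kept an interval below 1 (0.706-fold, 0.491 to 0.987), with Psmb8 at 1.01-fold (0.792 to 1.27) and H2-T23 at 222 against 205 CPM (0.916-fold to 1.28-fold).

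Checkpoint ligands and adhesion genes were higher. Of 6 measured genes of costimulation and PD-1 ligands 2 were at least 2-fold higher (beside 1.98% of all genes), Pdcd1lg2 and the adhesion gene Icam1 (29.8 against 14.6 CPM, 2.04-fold, 1.26 to 3.18), and the median log2 ratio was 0.79. Within GN.Arth.SynF the median was 0.68 and 1 of the 6 was at least 2-fold higher, Icam1 being at 1.97-fold (1.15 to 3.22). Without cells that held a macrophage, dendritic or B cell UMI the median was 0.18. Cd274, which encodes PD-L1, had 195 against 100 CPM (1.95-fold, 1.63 to 2.32). The classical costimulators differed less, Cd86 with 39.8 against 25.9 CPM (1.54-fold, 1.02 to 2.23) and Cd80 with 63.4 against 81.6 CPM (0.777-fold, 0.573 to 1.03), and Cd40 had 0 UMIs in positive cells.

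Genes of the list named joint and aged neutrophil genes were higher as well, with a median of 0.70. Of its 14 measured genes 4 were at least 2-fold higher and 0 lower, beside 1.98% and 2.67% of all genes. These were the chemokine gene Ccl3 (2340 against 1062 CPM, 2.20-fold), the oxidised-lipid receptor gene Olr1 (208 against 96.6 CPM, 2.15-fold), the granule tetraspanin gene Cd63 (1334 against 641 CPM, 2.08-fold, 1.95 to 2.22) and Icam1. Fth1, the ferritin heavy chain gene and the most abundant of the list, was 1.43-fold higher (1.41 to 1.45). The list was chosen with results of these cells known, and is not independent evidence of direction. Its name does not hold for every gene. Over all neutrophils Ccl3 had 1246 CPM in the joint, 2351 in lung and 1593 in peritoneum, and Olr1 had 109, 145 and 222 CPM. In zero cells Icam1 had 14.6, 201 and 394 CPM in that order, whereas Cd63 was highest in the joint (705 CPM over all neutrophils). Within GN.Arth.SynF 2 of the 14 were at least 2-fold higher, Ccl3 and Cd63, and the median was 0.67.

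Of the 15 neutrophil identity genes 13 had a ratio below 1, with a median of −0.44. Past 2-fold were 0, beside 1.98% higher and 2.67% lower of all genes. Il1r2 (1.09-fold, 1.04 to 1.14) and Clec4d (4067 against 3395 CPM) had ratios above 1. Within GN.Arth.SynF the median was −0.44 too, and 1 gene, Retnlg, was at least 2-fold lower (0.442-fold), beside 85 of all 4486 genes measured there. S100a8 had 57560 against 78988 CPM (0.729-fold), the chemokine receptor gene Cxcr2 865 against 1482 CPM (0.584-fold, 0.540 to 0.630) and Retnlg 2222 against 4056 CPM (0.548-fold, 0.522 to 0.575). Of the immature granule genes 3 of 12 were measured: Lcn2 at 0.641-fold, Cebpe at 0.583-fold and Ngp at 0.286-fold (4 UMIs in positive cells, 0.0768 to 0.748). Ltf, below the minimum of expected UMIs, had 13 UMIs in positive and 55 in zero cells (2.45-fold, 1.23 to 4.54). Genes for receptors of cytokines that induce class II elsewhere had a median of 0.18. Of these 0 of 9 were past 2-fold, beside 1.98% higher and 2.67% lower of all genes. The interferon-gamma receptor gene Ifngr1 had 259 against 220 CPM and Csf2rb2, a beta subunit of the IL-3 receptor, 95.7 against 61.3 CPM (1.56-fold, 1.21 to 1.99). Il4ra (0.679-fold, 0.514 to 0.883) and Csf3r (0.762-fold, 0.721 to 0.806) were lower.

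**Figure D4:**
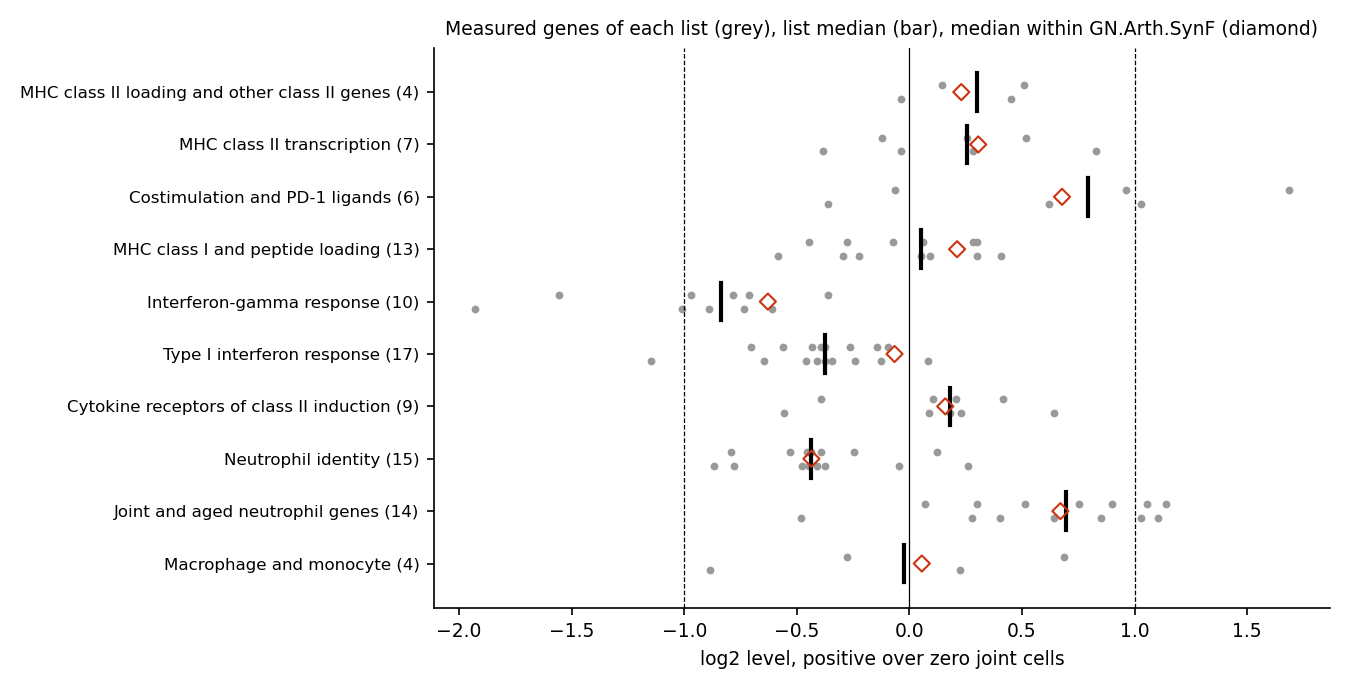
Log2 ratio of the level in positive over zero joint cells for each measured gene of a list (grey points; number of genes in brackets), the list median (black bar) and the median within GN.Arth.SynF (red diamond); dashed lines mark 2-fold. The interferon-gamma list has its median at −0.84 and every gene below 0, the joint and aged list its median at 0.70, and the type I interferon median moved from −0.38 to −0.066 within the class.

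Levels were graded with the number of class II UMIs in the joint cells for several abundant genes. Il1rn, which encodes the IL-1 receptor antagonist, had 1326 CPM in zero cells, 1989 with 1 UMI, 2389 with 2, 2964 with 3 to 4 and 6155 with 5 or more (5719 to 6616). The intervals of these 5 groups did not overlap. Gadd45b, a stress gene, had 598, 954, 1153, 1504 and 2352 CPM in the same order. Ccl3 had 1062, 1815, 2182, 2383 and 2761 CPM, and Cxcr2 had 1482, 1268, 963, 896 and 467 CPM. For Pdcd1lg2 the levels were 26.3, 37.3, 60.7, 89.9 and 150 CPM, the last from 18 UMIs.

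Other genes had no such order. Cd274 had 100, 175, 182, 142 and 367 CPM, and Retnlg had 4056, 2493, 3056, 1515 and 1176 CPM. Cd63 was 641 CPM in zero cells, between 1169 and 1196 CPM in the groups with 2 and with 3 to 4 UMIs, and 2185 CPM with 5 or more. Il1rn, Gadd45b, Cxcr2 and Retnlg were chosen after their values had been seen. Median depth was 3528, 3553, 3585, 3540.5 and 3725 UMIs in these groups of 2347, 305, 106, 68 and 31 cells.

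**Figure D5:**
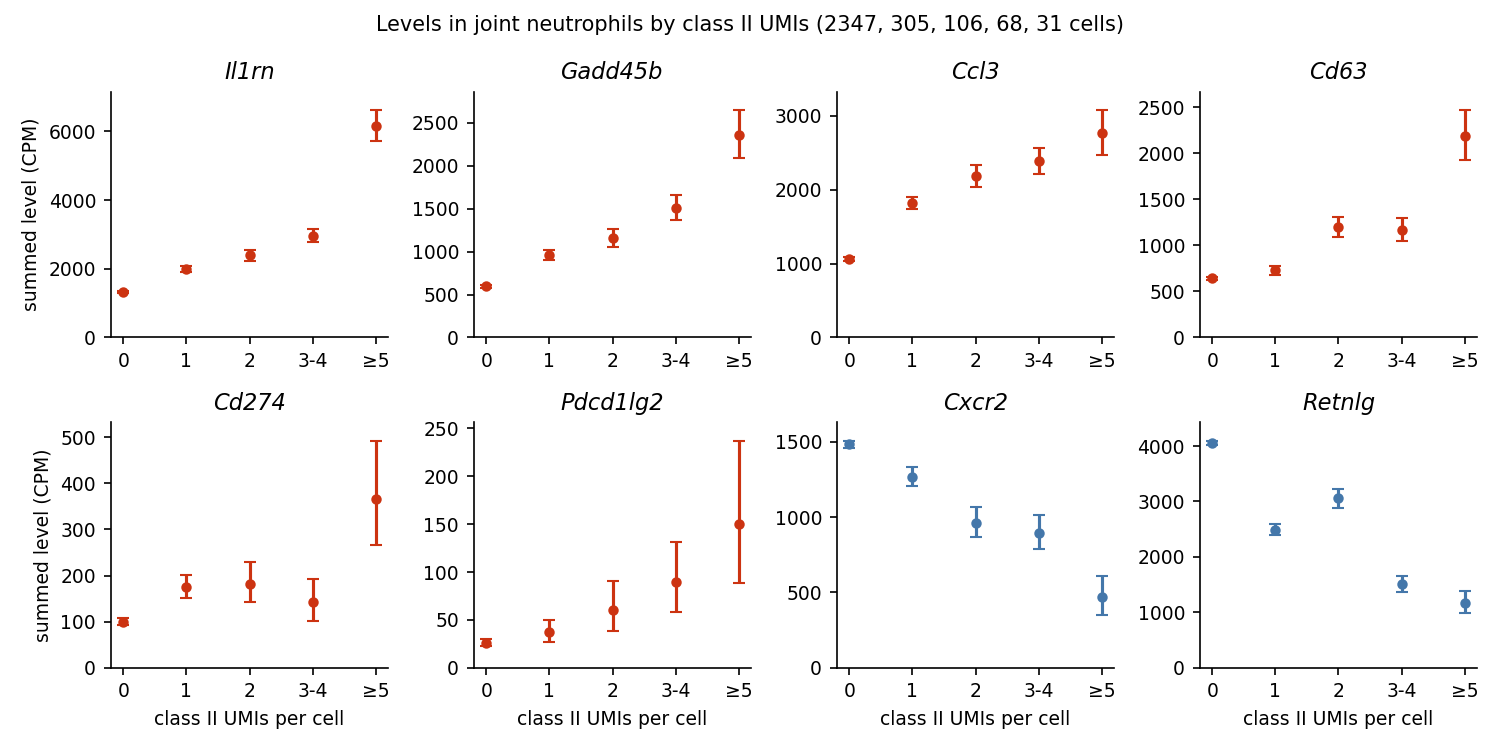
Summed levels (CPM, linear axes from 0, with exact Poisson 95% intervals) of 8 genes in joint neutrophils with 0, 1, 2, 3 to 4 and 5 or more class II UMIs (2347, 305, 106, 68 and 31 cells). Il1rn rises from 1326 to 6155 CPM and Cxcr2 goes from 1482 to 467 CPM, while Cd274 and Retnlg have no steady order.

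For most genes followed, cells in which only Cd74 was seen had levels nearer to zero cells than cells with a single chain gene, with Il1rn in H2-Ab1-only cells as an exception. The groups also differed in class II UMIs per cell, to which the levels were graded, and the part of this in the differences was not tested. Of all joint neutrophils, 157 had UMIs of Cd74 only, 148 of H2-Eb1 only, 64 of H2-Ab1 only and 48 of H2-Aa only, of which 134, 90, 51 and 30 cells had just 1 class II UMI. Il1rn was 1.27-fold (1.19 to 1.35) the level of zero cells in Cd74-only cells, 2.45-fold (2.33 to 2.57) in H2-Eb1-only, 2.03-fold in H2-Aa-only and 1.22-fold (1.10 to 1.35) in H2-Ab1-only cells. Cd63 was 1.06-fold (0.951 to 1.17) in Cd74-only and 1.59-fold (1.46 to 1.74) in H2-Eb1-only cells, and Cxcr2 was 0.964-fold (0.898 to 1.03) and 0.675-fold (0.620 to 0.735). Retnlg was 0.801-fold in Cd74-only, 0.604-fold in H2-Eb1-only, 0.387-fold in H2-Ab1-only and 0.435-fold in H2-Aa-only cells.

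For the lists, the joint and aged genes had medians of 0.14 in Cd74-only cells, 0.61 in H2-Eb1-only, 0.55 in H2-Ab1-only and 0.48 in H2-Aa-only cells, against −0.06 to 0.01 for all genes. The interferon-gamma genes had medians of −0.03, −1.58, −0.11 and −0.49 in that order, so that the median was lowest in cells with H2-Eb1 only. Gbp2 had 8 UMIs in those 148 cells (0.183-fold, 0.0785 to 0.362) and 39 in the 157 Cd74-only cells (0.848-fold, 0.598 to 1.17). All 4 groups are set against the same zero cells, and the differences between them were not tested.

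Positive cells of lung and peritoneum were set against the zero cells of their own tissue. The joint and aged list had medians of 0.70 in the joint, 0.28 in lung and 0.45 in peritoneum, and the neutrophil identity list −0.44, −0.35 and −0.50. The interferon-gamma list had −0.84 in the joint (10 genes), 0.24 in lung (6 genes) and −0.42 in peritoneum (7 genes). Ccl3 was 2.20-fold, 1.59-fold (1.46 to 1.72) and 2.04-fold (1.82 to 2.28) higher in positive cells of the 3 tissues. Cd274 was 1.95-fold higher in the joint, 1.07-fold in lung (0.800 to 1.43) and 1.10-fold in peritoneum (0.898 to 1.34), where its level over all neutrophils was 571 CPM, against 116 in the joint. Pdcd1lg2 was counted mostly in the joint: 32.1 CPM over all joint neutrophils (330 UMIs), 6.81 in lung (9 UMIs), 6.36 in peritoneum (6 UMIs), 0.743 in arthritic blood (2 UMIs) and 0 UMIs in control blood. The genes measured differ between tissues because 56 and 62 positive cells give fewer UMIs than 205, and the differences between tissues were not tested.

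The library also held 4 cells outside the granulocyte classes, which the rule left out. The cell of class B1a.PC, a B1a cell class, had 17 class II UMIs, with 4 of H2-Aa, 4 of H2-Ab1, 3 of H2-Eb1 and 6 of Cd74, and so had all 4 genes. The cell of class MF.Lu, a lung macrophage class, had 9, of which 8 were Cd74, and the other two had 2 and 1, all Cd74. None of the 4 came from the joint. H2-Eb1 overlaps Gm20513 on the opposite strand, which had 5 UMIs in joint cells.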

How the data were processed

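The series holds 7 libraries of 10X 3′ RNA sequencing from sorted mouse neutrophils, of which the inflammation library was analysed and the 6 healthy ones gave a comparison of class II UMIs. Per the study's methods, the authors aligned reads to mm10 with Cell Ranger (3.0.2 for the inflammation library) and deposited raw UMI counts, with hashtag doublets removed. The deposited table of cells gave condition and ImmGen class for all 4856 cells. How strand was used in counting is not given in the sources used here. The library held 16390439 UMIs over 13726 genes with a UMI, of 28692 listed. It shared 1 barcode each with 2 healthy libraries. Labels and methods name different joints.

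Cells were not filtered further or corrected for free RNA, and no doublet caller was run, so pairs of cells with the same hashtag remain. UMIs were summed over cells and scaled to 1e6 (CPM). Levels carry exact Poisson intervals, ratios exact conditional binomial intervals and shares exact binomial (Clopper-Pearson) intervals, all at 95%. The intervals cover counting error only, not variation between mice. A count of 0 allows up to 3 counts. Genes with at least 10 UMIs expected in positive cells were measured and called past 2-fold by ratio alone. Calculations were tested on simulated data. Genes named were the 4 class II genes, the 15 highest and 10 lowest ratios, and of the lists those past 2-fold or with the highest levels; others were chosen after their values were seen. The positive cells, lists and comparisons were chosen with earlier results of these data known. Alternatives changed the class II threshold, depth, filters on cells and the minimum of expected UMIs. Coordinates are from GENCODE M21 and promoters from RefSeq, both on GRCm38. Python 3.11.15 with numpy 2.4.6, scipy 1.17.1, pandas 2.3.3 and matplotlib 3.10.9 was used.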

Additional observations from a re-analysis of the deposited data

Results flagged for a closer look

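Cxcl10, an interferon-induced chemokine, had ratios of summed UMIs on opposite sides of 1 in joint and peritoneum. In the joint the ratio was 0.262 (0.162 to 0.404, 21 UMIs in 10 of 205 positive cells and 829 in 86 of 2347 zero cells). Cxcl10 was seen in 4.88% of positive and 3.66% of zero joint cells, so that this ratio comes from the UMIs per cell where it was seen. In the peritoneum the ratio was 2.64 (2.13 to 3.27, 178 UMIs in 62 positive and 177 in 192 zero cells). In lung the ratio was 0.651 (0.340 to 1.16, 14 and 78 UMIs). Within GN.Arth.SynF the joint ratio was 0.988 (0.538 to 1.69, 15 and 139 UMIs). The positive cells differed in their class II genes, Cd74 giving 98.6% of class II UMIs in peritoneal and 14.2% in joint positives. In joint cells with UMIs of Cd74 only the Cxcl10 ratio was 1.19 (0.921 to 1.52), in those with H2-Eb1 only 0.0704 (4 UMIs, 0.0191 to 0.181), in those with H2-Ab1 only 0.0851 (2 UMIs, 0.0103 to 0.309), and those with H2-Aa only had 0 UMIs. With 1 pool per tissue the difference was not tested.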

How the results depend on the processing

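No paired analysis was possible because no result comes from a test between replicated groups: the inflammation library is 1 run with 1 pool per condition, and the healthy libraries that share replicate numbers entered no test. The share of positive cells moved with the threshold and with depth. Taking at least 1 UMI, at least 3 UMIs, at least 2 of the 4 genes or cells thinned to 1000 UMIs, it was 17.9%, 3.47%, 3.26% and 1.79% in the joint, 3.69%, 0%, 0% and 0% in arthritic blood, 29.5%, 7.89%, 3.68% and 3.50% in lung, and 34.2%, 16.1%, 1.71% and 9.52% in peritoneum. In control blood it was 3.54% with at least 1 UMI and 0 otherwise. The order of joint, lung and peritoneum thus held except when at least 2 genes were required, where peritoneum was lowest. Thinned, 1.47% of positive joint cells had C1qa, C1qb or Ms4a6c.

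Genes at least 2-fold higher numbered 174 with 5 expected UMIs as the minimum and 39 with 30, and genes at least 2-fold lower 274 and 30, or 85 within GN.Arth.SynF. Of 109 list medians recomputed, 10 moved beyond their counting interval and 101 kept their sign. Without cells that held a macrophage, dendritic or B cell UMI (62 positive and 881 zero cells kept) the median log2 ratio was −0.39 for class II transcription, 0.18 for costimulation, 0.43 for class I, 0.26 for type I interferon and 0.48 for joint and aged genes. With at least 3 UMIs it was −1.62 for interferon-gamma and −0.96 for type I interferon, and with at least 2 genes −0.55 for neutrophil identity and 0.78 for joint and aged genes. The type I interferon median was −0.066 within GN.Arth.SynF. Of 268 recomputed values of the 25 named genes 266 kept their direction. The exceptions were Ccl2, with a log2 ratio of −1.84 without the cell with most Ccl2 UMIs, and Mnda, with 0.49 within GN.Arth.SynF, both alternatives chosen after seeing the data. The causes were not tested.

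Depth limits rare transcripts: 3 UMIs in the positive cells are 3.73 CPM. Pools of 3 mice hide variation between animals.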

Other observations

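Further genes, chosen after their values had been seen, had higher levels in positive joint cells at larger counts. Atp6v1c1 had 195 against 74.2 CPM (2.63-fold, 2.19 to 3.14) and Atp6v1a 360 against 152 CPM (2.36-fold). Both encode subunits of the vacuolar proton pump that acidifies lysosomes, and its other subunits were not followed as a list. The autophagy receptor gene Sqstm1 had 326 against 129 CPM (2.52-fold), Slc31a2, a copper transporter of endosomes, 222 against 86.4 CPM (2.58-fold), and F10, coagulation factor X, 232 against 90.4 CPM (2.57-fold). Within GN.Arth.SynF their ratios were 2.52, 2.37, 2.28, 2.45 and 2.69 in the order of Atp6v1c1, Atp6v1a, Sqstm1, Slc31a2 and F10. Stfa1, a cysteine protease inhibitor, was lower, with 102 against 347 CPM (0.294-fold, 0.233 to 0.366) and a ratio of 0.257 within GN.Arth.SynF. It was seen in similar shares of cells, 8.78% of positive and 9.67% of zero cells, so that the ratio comes from the UMIs per cell where it was seen.

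Il1rn, graded with class II UMIs in the joint, had its highest level over all neutrophils in the peritoneum (8392 CPM), followed by lung (3281 CPM), the joint (1543 CPM), control blood (297 CPM) and arthritic blood (213 CPM). Lmna was 23.1 CPM in the joint, 13.8 in peritoneum, 6.06 in lung, 1.49 in arthritic blood and 0.889 in control blood. Cd63 was highest in the joint (705 CPM, against 150 to 279 CPM in the other conditions).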
